A study of Drosophila melanogaster with 36 samples.

Results

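The genes described here are 5 components of the Fat signalling branch, ds, fj, app, lft and dco, and the glypican gene dlp, measured in the heads of adult Drosophila melanogaster with and without an Atrophin transgene for the eye. Each gene was represented by the probe set with the highest mean level over all arrays among those annotated with its symbol alone. These were 1640627_at for ds, 1636091_at for fj, 1635248_at for app, 1634213_at for lft, 1624447_s_at for dco and 1636974_at for dlp. Together 7 probe sets carried these symbols, since app had 2. The 6 genes were taken from 11982 genes with such a representative, and every test was run over 18769 probe sets. The study proposed Fat as a target of Atrophin. The gene ft itself was not analysed here.

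Fat is a giant atypical cadherin that restrains growth through the Hippo pathway and orients cells within an epithelium, and Dachsous, the product of ds, is the atypical cadherin that binds it on the neighbouring cell. The products of fj, dco, app and lft modify or bind these cadherins or their partners inside the cell. Dally-like, the product of dlp, is a heparan sulfate proteoglycan tethered to the outer face of the cell membrane. It shapes Wingless and Hedgehog signalling, and in the developing wing its level has been reported to depend on Fat.

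The study compared 4 genotypes, each on 3 days of adult life, and every one of the 12 groups held 3 arrays. A66QC and A75QN flies carried an Atrophin transgene with an expanded glutamine tract, Atro flies carried the wild-type transgene, and Control flies carried the driver and the repressor without an Atrophin transgene. All 4 genotypes carried GMR-Gal4, which drives expression in the eye, and a temperature-sensitive Gal80 repressor. Flies developed at 18 °C, where the transgenes are repressed, were collected within 48 hours of eclosion and were killed at once (day 0) or after 2 or 14 days at 29 °C, where the transgenes are on. Each RNA sample was a pool of 20 whole heads, so the eye was measured together with brain, muscle, fat body and cuticle, and fewer cells of a type and less RNA per cell cannot be told apart. Nothing in the labels says that replicates came from separate cultures, so p-values measure the spread between these samples, which may be technical.

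The median log2 value of an array was 6.34 at the lowest and 6.40 at the highest, and a group mean under 6.40 is called near background here. Replicates of a group correlated at r from 0.995 to 0.999 over all probe sets, and no pair of columns was identical. The 24 poly-A spike-in probe sets had array means of 13.2 to 13.4 in A75QN at days 2 and 14, 6 arrays in all, against 10.2 to 10.8 on the other 30 arrays, so a step of sample preparation and the genotype cannot be told apart in A75QN at these days. The array log ratio of 3′ over 5′ GAPDH probe sets, a measure of RNA integrity, averaged 2.16 ± 0.03 in A66QC, 1.99 ± 0.15 in A75QN, 2.10 ± 0.08 in Atro and 1.81 ± 0.07 in Control at day 14 (SD, n = 3 each). Its part in the results was not tested. Gug, the fly Atrophin gene, was not called higher than Control in any line at any day and its group means spanned 8.67 to 9.09, so its probe set gives no check of the transgenes. In A66QC it averaged 8.69 at day 0 and 8.67 at day 14, against 9.09 and 8.97 in Control. Gug was called lower in A66QC at day 14. The gap between these means was larger at day 0, before the shift in temperature, so the lower level was not confined to day 14. The photoreceptor markers measured, 7 of 15 listed, averaged 12.12 to 12.29 in the groups of day 14, and the 2 measured germline markers were near background in every one of these groups.

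Group means of the glypican gene dlp spanned 1.27 on the log2 scale, against 0.42 to 0.63 for the Fat branch genes. After 14 days at 29 °C, dlp was 2.41-fold lower in A66QC heads and 2.04-fold lower in A75QN heads than in Control heads, whereas in Atro heads it did not pass the test. At day 0 dlp was lower too, at 7.71 in A66QC and 7.43 in A75QN against 7.93 in Control. The A66QC call of day 0 was lost without any of 4 of its 6 arrays. At day 2 dlp averaged 7.57 in A66QC and 7.64 in A75QN against 7.44 in Control, with neither line called. Its change from day 0 to day 14 differed from Control's by -1.04 in A66QC and -0.53 in A75QN. In A66QC heads 4 of the 5 Fat branch genes were also lower than in Control at day 14, namely ds, app, lft and dco. Of all probe sets, 13.8% were called lower in that comparison. In A75QN heads app was lower as well, where 9.8% of all probe sets were called lower. Both app calls were lost with quantile normalization and without Control replicate 2 of day 14. For app, lft and dco these differences were 1.29-fold to 1.47-fold, while ds was near background in A66QC and its call was lost when any 1 array was left out.

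**Figure D1:**
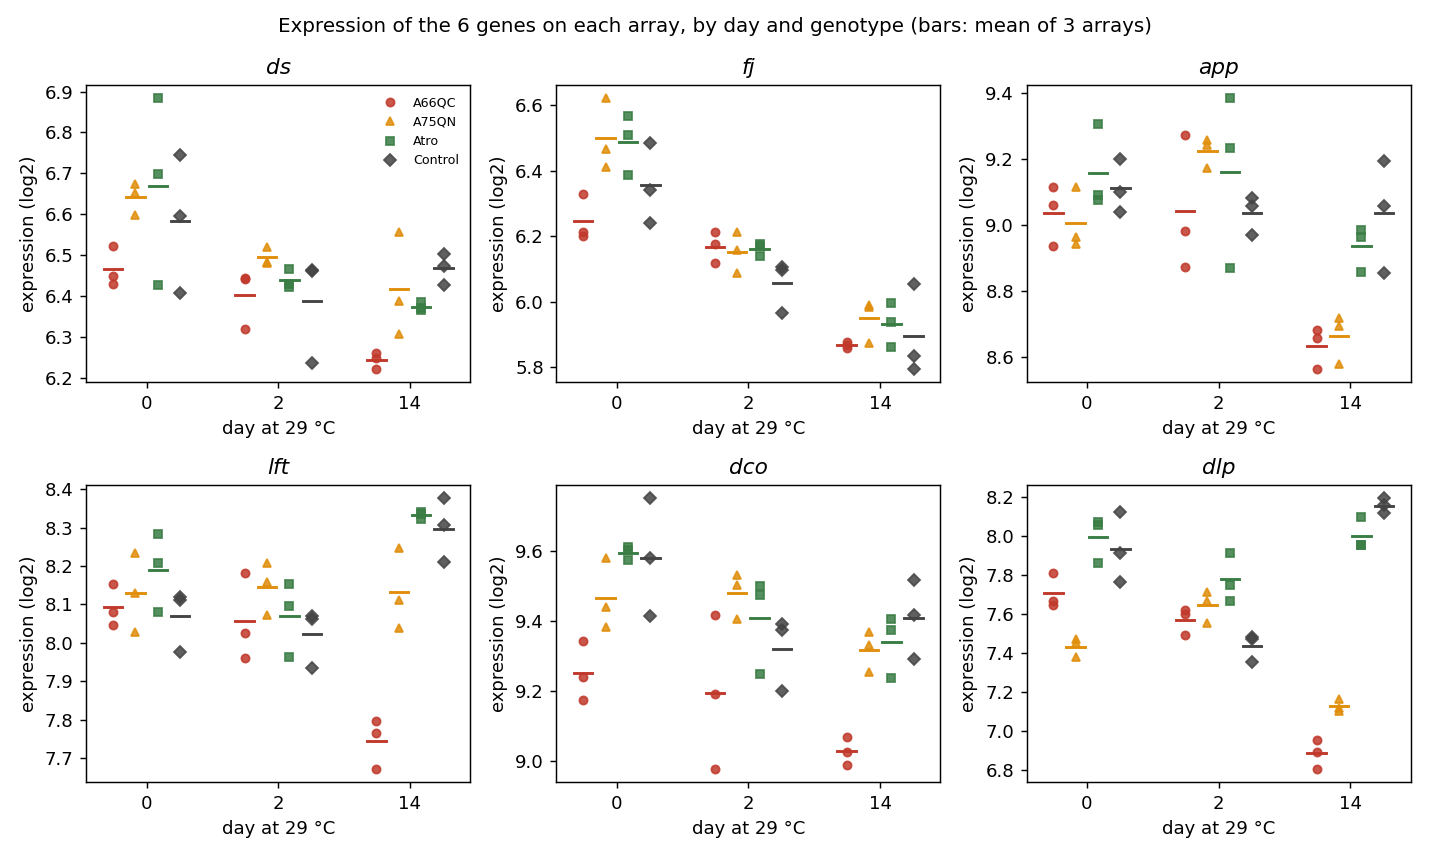
Expression (log2) of the 6 genes on each of the 36 arrays, by day at 29 °C and genotype, with a bar at the mean of the 3 arrays. At day 14 the A66QC arrays have the lowest group mean for all 6 genes, for fj by 0.03 between groups near background. How many of all probe sets do the same was not counted. The A66QC and A75QN arrays of dlp at that day lie between 6.81 and 7.16, below every other array.

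A difference is called where its adjusted p, by the moderated test of limma with Benjamini-Hochberg adjustment over all probe sets, was under 0.05. All 3 lines were set against the same Control arrays at each day, so their differences share the error of those arrays. At day 14, 5 of the 6 genes were called lower in A66QC, where 17.9% of all probe sets were called and 13.8% were called lower. In A75QN 2 of the 6 were called lower, where 15.6% of all probe sets were called and 9.8% were called lower. In Atro none of the 6 was called, where 4.18% of all probe sets were. The median difference of the 6 genes from Control at day 14 was -0.39 in A66QC, -0.13 in A75QN and -0.08 in Atro on the log2 scale, beside medians over all probe sets of 0.01, 0.02 and 0.00.

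Brighter probe sets as a whole lay lower in the polyglutamine lines in the deposited values. Among the 9384 probe sets above the median level the median difference from Control at day 14 was -0.12 in A66QC, -0.09 in A75QN and -0.04 in Atro, and 26.7%, 19% and 4.22% were called lower. Of all calls at day 14, 23.3% were higher calls in A66QC, 37.2% in A75QN and 44.5% in Atro, and after quantile normalization of the same values these shares were 52.7%, 54.1% and 55.1%. At day 0 the shares were 23.0% in A66QC, 28.0% in A75QN and 72.0% in Atro, and after quantile normalization 47.9%, 46.1% and 53.7%. With that normalization dlp, lft and dco stayed called lower in A66QC at day 14, at -1.13, -0.40 and -0.19, while app and ds did not. In A75QN dlp stayed called at -0.93, and app did not. The median difference of the 6 genes at day 14 was then -0.21 in A66QC, -0.05 in A75QN and -0.05 in Atro.

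At day 0, before the shift to 29 °C, 2 of the 6 genes were called lower in A66QC, where 10.9% of all probe sets were called and 8.36% were called lower. In A75QN 1 was called lower, where 7.04% were called and 5.07% were called lower. None was called in Atro, where 4.37% of all probe sets were called. At day 2, none was called in A66QC or A75QN, where 3.44% and 4.68% of all probe sets were called, and 1 was called higher in Atro, where 3.63% were called and 1.62% were called higher. The genes of these early calls were dco and dlp in A66QC at day 0, dlp in A75QN at day 0 and dlp in Atro at day 2. The count at day 2 depended on the setting, with 5 calls over the 3 lines after quantile normalization, 4 after cyclic loess and 5 with array weights.

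**Figure D2:**
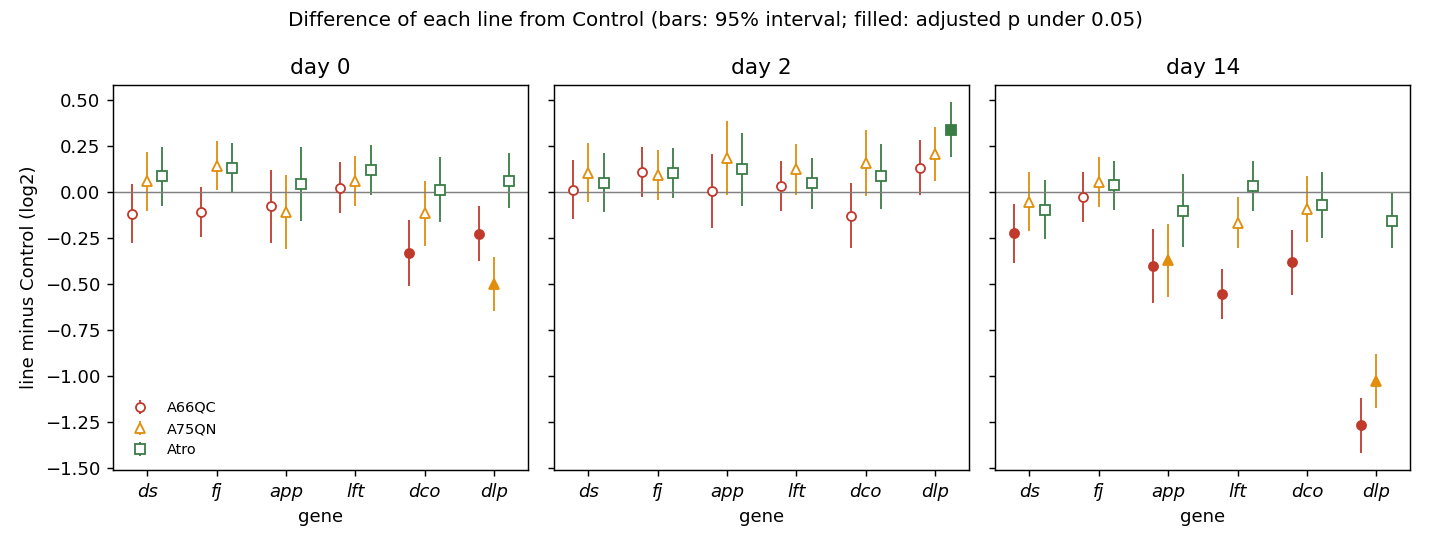
Difference of each line from Control (log2) for the 6 genes at days 0, 2 and 14. Points are fitted differences of 3 arrays against 3, bars are 95% intervals, and filled points have an adjusted p under 0.05; at day 14 dlp lies at -1.27 in A66QC and -1.03 in A75QN, below every other point.

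The ligand gene ds had 4 of its 12 group means near background. At day 14 the A66QC arrays read 6.25, 6.22 and 6.26 and the Control arrays 6.43, 6.50 and 6.47. The groups did not overlap, as for 39% of all probe sets in this comparison. The difference was -0.22 (SE 0.08, adjusted p = 0.0479). This call was lost when any 1 of the 6 arrays was left out, with values from -0.24 to -0.21 and adjusted p from 0.0526 to 0.177. With quantile and cyclic loess normalization it was lost too (adjusted p = 0.0567 and 0.0837). In A75QN ds read 6.39, 6.31 and 6.56 at day 14, and in Atro 6.37, 6.39 and 6.37, and neither line was called.

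The gene fj encodes a Golgi kinase that phosphorylates the cadherin domains of Fat and Dachsous. It was near background in 10 of 12 groups, and it fell from day 0 to day 14 in every genotype. In A66QC heads fj averaged 6.25 ± 0.07 at day 0, 6.17 ± 0.05 at day 2 and 5.87 ± 0.01 at day 14. In A75QN heads the means were 6.50 ± 0.11, 6.15 ± 0.06 and 5.95 ± 0.07, in Atro heads 6.49 ± 0.09, 6.16 ± 0.02 and 5.93 ± 0.07, and in Control heads 6.36 ± 0.12, 6.06 ± 0.08 and 5.89 ± 0.14 (SD, n = 3 each). From day 0 to day 14 it fell by 0.38 in A66QC, 0.55 in A75QN, 0.56 in Atro and 0.46 in Control, with adjusted p from 4.51e-08 to 3.18e-05. At day 14 fj was near background in every genotype, and at day 0 in A66QC and Control, so these sizes are differences between signals near background and no measure of the fold change in RNA. No line was called against Control in fj at any day, and no difference between a line's change and Control's change was called. At day 0 fj was lower in A66QC than in Atro, by -0.24 (adjusted p = 0.021). This call was lost without Atro replicate 1, Atro replicate 3 or A66QC replicate 1, where the values ran from -0.23 to -0.20 and the adjusted p from 0.0872 to 0.132.

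The gene app encodes a palmitoyltransferase of the DHHC family that acts in the Fat branch on the myosin Dachs. At day 14 app read 8.68, 8.57 and 8.66 in A66QC heads, 8.58, 8.72 and 8.69 in A75QN heads, 8.99, 8.86 and 8.97 in Atro heads and 8.86, 9.19 and 9.06 in Control heads. Every array of A66QC and A75QN lay below every array of Atro and Control at that day. Of all probe sets, 39% were without overlap between A66QC and Control and 33.9% between A75QN and Control. The difference from Control was -0.40 in A66QC (SE 0.10, adjusted p = 0.00449) and -0.37 in A75QN (SE 0.10, adjusted p = 0.00983). Without Control replicate 2 of day 14 these were -0.32 and -0.29, with adjusted p of 0.0608 and 0.109, and quantile normalization gave -0.21 and -0.20, with adjusted p of 0.0518 and 0.0574. The second probe set of app, 1639088_at, stayed near background in all 12 groups, where its arrays spanned 6.00 to 6.25, and it was called in no comparison.

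The kinase gene dco encodes a casein kinase 1 that phosphorylates the intracellular part of Fat and, under the name doubletime, the clock protein Period. At day 0 dco read 9.24, 9.17 and 9.34 in A66QC heads, 9.44, 9.38 and 9.58 in A75QN heads, 9.60, 9.57 and 9.61 in Atro heads and 9.41, 9.58 and 9.75 in Control heads. The A66QC arrays lay below all arrays of the other genotypes, and 24.3% of all probe sets were without overlap between A66QC and Control at day 0. At day 14 they did so again, with 8.99, 9.02 and 9.07 in A66QC heads, 9.37, 9.33 and 9.25 in A75QN heads, 9.41, 9.24 and 9.38 in Atro heads and 9.29, 9.42 and 9.52 in Control heads. Between A66QC and Control 39% of all probe sets were without overlap at day 14. The difference of A66QC from Control was -0.33 at day 0 (SE 0.09, adjusted p = 0.012) and -0.38 at day 14 (SE 0.09, adjusted p = 0.00244). The first was lost without Control replicate 3 (-0.25, adjusted p = 0.113) or A66QC replicate 2 (-0.29, adjusted p = 0.0703) of day 0. The second stayed past the threshold in every alternative tried, at -0.19 with quantile normalization. The change of dco from day 0 to day 14 did not pass the test against Control's change in any line, and in A66QC the difference between the changes was -0.05 with a 95% interval from -0.30 to 0.20.

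The gene lft encodes a small cytoplasmic protein that binds the intracellular parts of Fat and Dachsous. At day 14 lft read 7.80, 7.67 and 7.76 in A66QC heads, 8.25, 8.04 and 8.11 in A75QN heads, 8.32, 8.34 and 8.34 in Atro heads and 8.31, 8.38 and 8.21 in Control heads. The A66QC arrays lay below all others of that day, where 39% of all probe sets were without overlap between A66QC and Control. The highest A75QN array overlapped the lowest Control array. The difference from Control was -0.55 in A66QC (SE 0.07, adjusted p = 3e-07), a value below which 1.79% of all probe sets lay. It was -0.16 in A75QN (adjusted p = 0.0901) and 0.03 in Atro (adjusted p = 0.909). No line was called against Control in lft at day 0 or day 2.

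Over time lft moved in opposite directions in A66QC and in Control. From day 2 to day 14 it fell by 0.31 in A66QC (adjusted p = 0.00103), and rose by 0.26 in Atro (adjusted p = 0.00447) and by 0.28 in Control (adjusted p = 0.00472). The Control rise was lost without Control replicate 2 of day 2 (0.23, adjusted p = 0.0516) and without the 6 arrays of outlying spread (0.19, adjusted p = 0.098). The change from day 0 to day 14 differed between A66QC and Control by -0.58 (SE 0.10, adjusted p = 0.000153), and this kept its call in every alternative tried, where it ran from -0.62 to -0.52.

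For dlp the arrays of day 14 read 6.95, 6.89 and 6.81 in A66QC heads, 7.10, 7.12 and 7.16 in A75QN heads, 8.10, 7.95 and 7.95 in Atro heads and 8.11, 8.19 and 8.16 in Control heads. The 6 polyglutamine arrays lay far below the other 6, where 39% of all probe sets in A66QC and 33.9% in A75QN were without overlap with Control. No Atro array reached a Control array, as for 21.1% of all probe sets. The difference from Control was -1.27 in A66QC (SE 0.07, adjusted p = 1.22e-14) and -1.03 in A75QN (SE 0.07, adjusted p = 2.23e-12). Of all probe sets, 0.261% had a lower difference in A66QC and 0.373% in A75QN. In Atro the difference was -0.15 with a 95% interval from -0.30 to -0.01 (adjusted p = 0.335). Over all alternatives tried, the values ran from -1.30 to -1.13 in A66QC and from -1.05 to -0.93 in A75QN, and both kept their calls.

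The dlp level already differed at day 0, at the temperature at which Gal80 is meant to repress the transgenes. Transgene expression itself was not measured here. At that day dlp read 7.66, 7.65 and 7.81 in A66QC heads, 7.47, 7.38 and 7.45 in A75QN heads, 8.07, 7.86 and 8.05 in Atro heads and 7.76, 7.91 and 8.12 in Control heads. The A75QN arrays lay below all others of day 0, without overlap with Control as for 29.8% of all probe sets. They differed by -0.50 from Control (SE 0.07, adjusted p = 2.38e-05), and this held in every alternative tried. The A66QC arrays overlapped those of Control, and their difference of -0.22 (adjusted p = 0.0431) was lost in 7 alternatives. These included leaving out Control replicate 2 or 3 or A66QC replicate 1 or 2, with values from -0.24 to -0.13 and adjusted p from 0.102 to 0.332.

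At day 2 the order of the genotypes was another. The arrays of dlp read 7.49, 7.60 and 7.62 in A66QC heads, 7.55, 7.71 and 7.67 in A75QN heads, 7.91, 7.67 and 7.75 in Atro heads and 7.47, 7.36 and 7.48 in Control heads. Every array of the 3 lines lay above every Control array, as for 12.3%, 21.7% and 11.3% of all probe sets in A66QC, A75QN and Atro. Atro passed the test, at 0.34 (SE 0.07, adjusted p = 0.00358), and without Atro replicate 1 of day 2 it was 0.27 (adjusted p = 0.0517). The differences of A66QC and A75QN were 0.13 (adjusted p = 0.485) and 0.21 (adjusted p = 0.108). After quantile normalization dlp was called higher in all 3 lines, at 0.18 in A66QC, 0.24 in A75QN and 0.35 in Atro (adjusted p = 0.0226, 0.00137 and 8.7e-06), and after cyclic loess too, at 0.17, 0.22 and 0.35 (adjusted p = 0.0447, 0.00571 and 2.58e-05).

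The time courses of dlp therefore differed in shape. In Control heads dlp averaged 7.93 ± 0.18 at day 0, 7.44 ± 0.07 at day 2 and 8.15 ± 0.04 at day 14, a fall of 0.50 (adjusted p = 4.05e-06) followed by a rise of 0.72 (adjusted p = 1.09e-08). In A66QC heads it averaged 7.71 ± 0.09, 7.57 ± 0.07 and 6.89 ± 0.07, and fell by 0.68 from day 2 to day 14 (adjusted p = 1.87e-08). In A75QN heads it averaged 7.43 ± 0.05, 7.64 ± 0.08 and 7.13 ± 0.03, and fell by 0.52 from day 2 to day 14 (adjusted p = 3.17e-06). In Atro heads it averaged 7.99 ± 0.12, 7.78 ± 0.13 and 8.00 ± 0.08 (SD, n = 3 each). The smaller movements, a fall by 0.22 and a rise by 0.22 in Atro and a rise by 0.21 from day 0 to day 2 in A75QN, passed the threshold (adjusted p = 0.0375, 0.0259 and 0.0359). Each was lost when any of 3 to 5 of its 6 arrays was left out, with values of -0.20 to -0.16, 0.17 to 0.21 and 0.18 to 0.23 and adjusted p from 0.0535 to 0.216.

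The change of dlp from day 0 to day 14 differed from that of Control by -1.04 in A66QC (SE 0.10, adjusted p = 1.24e-08) and by -0.53 in A75QN (SE 0.10, adjusted p = 0.00127). In Atro the difference between the changes was -0.22 (adjusted p = 0.477, 95% interval from -0.43 to -0.01). Among the 6 genes 2 were called for this difference in A66QC, lft and dlp, and 1 in A75QN, dlp, where 2.29% and 3.09% of all probe sets were called and 1.78% and 2.33% were called lower. None was called in Atro, where 2.11% were. For the change from day 0 to day 2, dlp in A75QN was the only call, at 0.71 (SE 0.10, adjusted p = 6.15e-05), where 2.04% of all probe sets were called and 0.98% were called higher. None was called for it in A66QC or Atro, where 1.32% and 1.35% were.

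Counted from day 2, a comparison chosen after seeing the data, the change of dlp to day 14 differed from Control's by -1.40 in A66QC (adjusted p = 1.91e-11), -1.24 in A75QN (adjusted p = 3.34e-10) and -0.49 in Atro (adjusted p = 0.00616). These 3 values rest on the Control arrays of day 2, the lowest of Control. The same comparison gave -0.59 for lft in A66QC (adjusted p = 0.000137) and -0.56 for app in A75QN (adjusted p = 0.0199). The app value was lost with the mean of its probe sets and without any of 4 arrays, Control replicate 1 of day 2, Control replicate 2 of day 14, A75QN replicate 2 of day 2 or A75QN replicate 1 of day 14, where it ran from -0.55 to -0.48 with adjusted p from 0.0524 to 0.0994. Together 2 of the 6 genes were called in A66QC, 2 in A75QN and 1 in Atro, where 3.12%, 2.86% and 1.41% of all probe sets were called and 2.38%, 2.13% and 0.554% were called lower.

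**Figure D3:**
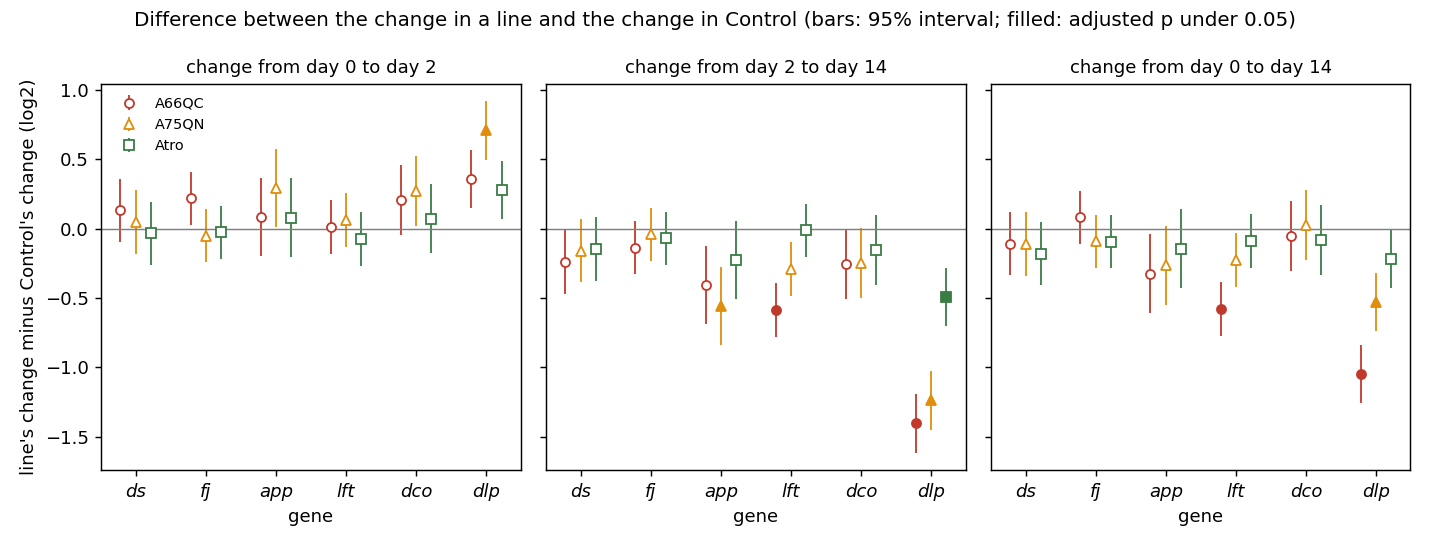
Difference between the change in a line and the change in Control (log2) for the 6 genes, from day 0 to day 2, from day 2 to day 14 and from day 0 to day 14. Bars are 95% intervals and filled points have an adjusted p under 0.05; dlp lies at 0.71 in A75QN for the first interval and at -1.40 in A66QC and -1.24 in A75QN for the second.

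Set against the wild-type transgene, the polyglutamine lines differed most in dlp among the 6 genes at day 14. At that day dlp was lower than in Atro by -1.12 in A66QC (SE 0.07, adjusted p = 7.13e-13) and by -0.87 in A75QN (SE 0.07, adjusted p = 2.25e-10). In A66QC lft was lower than in Atro by -0.59 (SE 0.07, adjusted p = 2.19e-07), and dco by -0.31 (SE 0.09, adjusted p = 0.0268). The dco call was lost with quantile normalization and with cyclic loess, and without Atro replicate 1 or 3 or A66QC replicate 1 or 2 of day 14, where it ran from -0.31 to -0.28 with adjusted p from 0.0923 to 0.14. Thus 3 of the 6 genes were called lower in A66QC and 1 in A75QN, where 5.86% and 9.29% of all probe sets were called and 5.16% and 6.53% were called lower.

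At day 2 none of the 6 genes was called between A66QC or A75QN and Atro, where 0.517% and 2.12% of all probe sets were called. At day 0 dlp was lower than in Atro by -0.56 in A75QN (SE 0.07, adjusted p = 3.05e-06), which held in every alternative tried. In A66QC dlp at -0.29 and dco at -0.34 (adjusted p = 0.013 each), and fj, were called at day 0. The dlp and dco calls were lost without Atro replicate 1 or 3 or A66QC replicate 1 or 2, with adjusted p from 0.0544 to 0.0863. The dlp call was also lost with quantile normalization, at -0.14 (adjusted p = 0.0745), and in the fit of the compared groups alone (adjusted p = 0.059). Of all probe sets, 9.36% were called in A66QC and 11.3% in A75QN at day 0, and 8.14% and 9.35% were called lower. The change from day 0 to day 14, compared after seeing the data, differed between A66QC and Atro by -0.83 for dlp (adjusted p = 3.22e-06) and by -0.49 for lft (adjusted p = 0.00269), 2 of the 6 genes where 1.36% of all probe sets were called and 0.863% were called lower. Between A75QN and Atro it differed by -0.31 for dlp (adjusted p = 0.132, 95% interval from -0.52 to -0.10), and none of the 6 was called where 2.17% of all probe sets were.

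Between the polyglutamine lines, A66QC was lower than A75QN at day 14 in lft, by -0.39 (SE 0.07, adjusted p = 0.000168), which held in every alternative tried. The genes dco at -0.29 (adjusted p = 0.0328) and dlp at -0.24 (adjusted p = 0.0346) were also called, but each call was lost without 5 of the 6 arrays in turn, with adjusted p from 0.0552 to 0.156. At day 0 dlp was higher in A66QC than in A75QN by 0.27 (SE 0.07, adjusted p = 0.0168), and fj was lower by -0.25 (adjusted p = 0.0147). Without A66QC replicate 3 or A75QN replicate 2 of day 0 the dlp difference was 0.22 or 0.25 (adjusted p = 0.11 and 0.0839). The fj difference ran from -0.24 to -0.19 without A66QC replicate 1 or 3 or A75QN replicate 1 (adjusted p from 0.0605 to 0.145). Thus 3 of the 6 genes were called at day 14, 2 at day 0 and none at day 2, where 8.18%, 6.01% and 2.88% of all probe sets were called. At day 14 4.66% were called lower.

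Within a genotype, 5 of the 6 genes were lower at day 14 than at day 0 in A66QC, 4 in A75QN and 3 in Atro, where 27.2%, 31.3% and 29.5% of all probe sets were called in either direction and 11.7%, 12% and 13.4% were called lower. In Control fj was lower, and lft at 0.23 (adjusted p = 0.00796) and dlp at 0.22 (adjusted p = 0.017) were higher, where 31.5% were called. The Control rise of lft was lost without replicate 1 of day 0 or replicate 2 of day 14 (0.18 and 0.19, adjusted p = 0.0679 and 0.06). That of dlp was lost without replicate 1 or 2 of day 0 or replicate 2 of day 14, where it ran from 0.14 to 0.21 with adjusted p from 0.0534 to 0.199. The dlp rise was also lost with cyclic loess (0.12, adjusted p = 0.0742) and with array weights (0.18, adjusted p = 0.0515). It was lost as well without the arrays of outlying spread (0.12, adjusted p = 0.313) and in the fit of the compared groups alone (adjusted p = 0.0762). The gene app fell by 0.40 in A66QC (adjusted p = 0.00179) and by 0.34 in A75QN (adjusted p = 0.00652), while in Atro it changed by -0.22 (adjusted p = 0.0934) and in Control by -0.08 (adjusted p = 0.624). The differences between these changes and Control's were not called for app, at -0.32 in A66QC (adjusted p = 0.389) and -0.26 in A75QN (adjusted p = 0.472). The gene ds fell by 0.22 in A66QC, 0.23 in A75QN and 0.30 in Atro, each of which lost its call without at least 1 array. For Atro that was replicate 3 of day 0 alone (-0.19, adjusted p = 0.077). For A66QC and A75QN it was any of 5 and any of 4 of the 6 arrays, with values from -0.23 to -0.17 and adjusted p from 0.0598 to 0.157. From day 0 to day 2 none of the 6 was called in A66QC, where 18.1% of all probe sets were, and 1 rose and 1 fell in A75QN, where 19.7% were called. In the same interval 3 fell in Atro and 3 in Control, where 15.7% and 22.2% were called and 9.61% and 11.5% were called lower. In Atro the fall of ds was lost without any of 5 of the 6 arrays and that of dlp without any of 4. In Control the fall of dco was lost without any of 3. Each was also lost in the fit of the compared groups alone. From day 2 to day 14, 4 genes fell in A66QC and 3 in A75QN, where 15.1% and 16.1% were called and 8.19% and 7.56% were called lower. Between these days 2 rose and 1 fell in Atro, where 19.9% were called, and 2 rose in Control, where 13.5% were called and 10.3% were called higher. The fall of app in A66QC was lost without 1 array (-0.29, adjusted p = 0.0513) and with the mean of its probe sets. The fall of fj was lost without any of 3 arrays in A75QN and without 1 in Atro. The shares of higher calls over all probe sets moved with quantile normalization here too, to 52.8% in Atro, against 65.7% without it, and to 48.8% in Control, against 76.5% without it.

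Ordered by mean over the 12 groups, A66QC at day 14 was last for all 6 genes, and for Gug as well. For fj it lay 0.03 below Control at day 14, both near background. The share of all probe sets that were last in this group was not counted. In this group 13.8% of all probe sets were called lower than in Control of that day. Among the probe sets above the median level it was 26.7%. Neighbours in the order of means were separated, in that all 3 arrays of one lay above all 3 of the next, in 4 of 11 steps for dlp, in 1 step each for ds, app and lft, and in none for fj and dco. Of all probe sets 1.29% had 4 or more separated steps and 30.7% had at least 1. For dlp the separated steps were those below Control day 14, below A66QC day 2, below A75QN day 0 and between A75QN day 14 and A66QC day 14. Over the 12 group means, which share genotypes, days and the arrays' common processing, ds correlated most with fj and with dco (r = 0.87 for both pairs), and dlp with lft (r = 0.77) and app (r = 0.72). The correlation was lowest between fj and lft, at r = 0.09.

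The genes whose 12 group means were most like those of dlp were cd, at r = 0.96, a gene of eye pigment formation, and sl, at r = 0.95, which encodes a phospholipase C gamma. At day 14 cd averaged 6.05 in A66QC and 6.16 in A75QN, both near background, 6.72 in Atro and 6.71 in Control. Those most like app were Rab32, at r = 0.95, a small GTPase of pigment granule formation, and pkm, at r = 0.95. At day 14 Rab32 differed from Control by -1.90 in A66QC, -1.86 in A75QN and -0.49 in Atro, and pkm by -3.83 in A66QC, -3.64 in A75QN and -1.48 in Atro. For lft they were CG5116 (r = 0.91) and GlcAT-S (r = 0.88), for dco bchs (r = 0.96) and Camta (r = 0.96), for ds CG9003 (r = 0.98) and Cul1 (r = 0.97), and for fj Cda5 (r = 0.98) and CG11413 (r = 0.98). These rankings are a description of 12 group means.

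Markers of head cell types were also called at day 14, in both directions. The level of the pigment and cone cell markers, 4 of 5 measured, ranged over the arrays from 6.97 to 7.12 in A66QC, 7.10 to 7.17 in A75QN, 7.63 to 7.66 in Atro and 8.12 to 8.32 in Control. All 4 were called lower in A66QC and 3 in A75QN, and in Atro 3 were called lower and 1 higher. In A66QC 2 of the 4 were near background, in A75QN and Atro 1, and in Control none. The neuron markers, 7 of 9 measured, ranged from 8.01 to 8.19 in A66QC, 8.22 to 8.43 in A75QN, 8.20 to 8.31 in Atro and 8.34 to 8.55 in Control, with 5 called lower in A66QC, 1 in A75QN and 1 in Atro. The glia markers, 5 of 6 measured, ranged from 9.70 to 9.75 in A66QC, 9.79 to 9.95 in A75QN, 9.96 to 10.03 in Atro and 10.07 to 10.31 in Control, with 3 called lower in A66QC, 2 in A75QN and 0 in Atro. The photoreceptor markers averaged 12.16 in A66QC, 12.12 in A75QN, 12.13 in Atro and 12.29 in Control, with 1 called lower in A75QN, 0 in A66QC and 0 in Atro, and none near background. Of 6 muscle markers 1 was called higher in A66QC and 1 in Atro, and of 7 fat body markers 1 was higher in A66QC and 1 in Atro and 1 lower in A75QN. Of 4 haemocyte markers 1 was called lower in A66QC, 2 in A75QN and 1 in Atro. The 3 trachea markers averaged 7.84 in A66QC, 8.07 in A75QN, 8.53 in Atro and 8.23 in Control, with 1 called lower in A66QC and 1 in A75QN. After quantile normalization, of the lists whose counts moved, A66QC had 3 pigment and cone cell, 3 neuron, 2 glia and 1 haemocyte markers called lower and 3 muscle, 3 haemocyte and 1 photoreceptor markers called higher. In A75QN no neuron or photoreceptor marker was then called, 2 glia markers were lower and 1 higher, and 2 muscle markers and 1 haemocyte marker were higher. In Atro 1 glia, 2 photoreceptor and 1 haemocyte markers were then lower and 2 muscle, 1 haemocyte and 1 trachea markers higher. The part of these shifts in the results for the 6 genes was not tested.

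Other genes of the Fat branch, 8 of 10 listed being measured, were called lower at day 14 in 5 cases in A66QC, 1 in A75QN and 0 in Atro. The share of all probe sets called lower was 13.8% in A66QC, 9.8% in A75QN and 2.32% in Atro, and that of the probe sets above the median level 26.7%, 19% and 4.22%. In A66QC, jub, an adaptor that holds the kinase Warts at junctions, differed from Control by -0.21 (adjusted p = 0.00359) and Dlish, an SH3 protein that acts with Dachs, by -0.22 (adjusted p = 0.00608). The ubiquitin ligase gene elgi differed by -0.21 (adjusted p = 0.0343), and the other calls were wap and Gug itself. In A75QN the kinase gene mnb was the call, at -0.36 (adjusted p = 0.00318). The median difference of the list was -0.21 in A66QC, -0.13 in A75QN and -0.04 in Atro. With quantile normalization 1 was called lower in A66QC and the median there was -0.08.

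The Hippo pathway genes, 11 of 12 measured, had 3 called lower in A66QC, the same 3 in A75QN and 0 in Atro. This was 27.3% of the list in A66QC and in A75QN, beside 26.7% and 19% of the probe sets above the median level. The apical polarity gene crb differed by -0.56 in A66QC (adjusted p = 4.51e-05) and -0.44 in A75QN (adjusted p = 0.00111). The kinase gene Tao, upstream of Hippo, differed by -0.52 in A66QC and -0.37 in A75QN (adjusted p = 0.000493 and 0.0126). The scaffold gene kibra differed by -0.16 in A66QC and -0.17 in A75QN (adjusted p = 0.0461 and 0.0322). The median difference of the Hippo list in A66QC was -0.15, and 0.02 with quantile normalization, with which 2 were called lower in A66QC and 1 in A75QN. Of the genes listed as outputs of Fat and Yorkie 2 of 8 were measured, and of the core planar polarity genes 3 of 6, and none of these was called at day 14 in any line. Cadherin genes, 11 of 15 measured, had 3 called lower in A66QC, 1 in A75QN and 1 in Atro. These were 27.3%, 9.09% and 9.09% of the list, beside 26.7%, 19% and 4.22% of the probe sets above the median level. The 3 in A66QC were shg, which encodes E-cadherin, at -0.27, Cad87A at -0.34 and CadN, which encodes N-cadherin, at -0.38 (adjusted p = 0.00124, 0.00748 and 0.00771). In Atro shg was the call, at -0.23 (adjusted p = 0.0172). With quantile normalization the counts of cadherin genes called lower were 3 in A66QC, 0 in A75QN and 1 in Atro.

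Among the other DHHC palmitoyltransferase genes, 8 of 9 measured, 2 were called lower in A66QC, 2 in A75QN and 1 in Atro, or 25%, 25% and 12.5% of the list, beside 26.7%, 19% and 4.22% of the probe sets above the median level. With quantile normalization 1 was called lower and 1 higher in A66QC, 1 lower and 1 higher in A75QN and 1 lower in Atro. The gene CG5196 differed by -0.69 in A66QC, -0.75 in A75QN and -0.41 in Atro (adjusted p = 1.99e-06, 4.08e-07 and 0.00602). Its change from day 0 to day 14 also differed from Control's, by -0.55 in A66QC and -0.59 in A75QN (adjusted p = 0.0144 and 0.00532). Among casein kinase and clock genes, 11 of 14 measured, 8 were called lower in A66QC and 6 in A75QN, while in Atro 2 were lower and 1 was higher. The lower calls were 72.7% of the list in A66QC, 54.5% in A75QN and 18.2% in Atro, beside the same 26.7%, 19% and 4.22%. The clock gene tim differed by -0.55 in A66QC, -0.10 in A75QN and 0.42 in Atro (adjusted p = 1.46e-05, 0.394 and 0.00131), and gish, a casein kinase 1 gene, by -0.65 in A66QC, -0.37 in A75QN and -0.37 in Atro (adjusted p = 2.91e-05, 0.015 and 0.0331). The change of tim from day 0 to day 14 differed from Control's by -1.90 in A66QC and -1.11 in Atro (adjusted p = 2.49e-13 and 1.29e-07), and by -0.29 in A75QN (adjusted p = 0.263). With quantile normalization 6 genes of the list were called lower in A66QC, 3 in A75QN and 3 in Atro, and 1 was higher in Atro. The labels do not give the hour of the day at which flies were killed, and its part was not tested.

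Around dlp, 15 of 17 other glypican and heparan sulfate genes were measured, of which 5 were called lower in A66QC, 5 in A75QN and 1 in Atro. This was 33.3%, 33.3% and 6.67% of the list, beside 26.7%, 19% and 4.22% of the probe sets above the median level. Hs6st, a heparan sulfate sulfotransferase gene, differed by -0.44 in A66QC and -0.32 in A75QN (adjusted p = 1.26e-05 and 0.00117). With quantile normalization the counts were 3 lower and 1 higher in A66QC, 5 lower and 2 higher in A75QN and 2 lower in Atro. The syndecan gene Sdc differed by -0.38 in A66QC (adjusted p = 0.0034) and -0.24 in A75QN (adjusted p = 0.0655). The UDP-glucose dehydrogenase gene sgl differed by -0.29 in A66QC, -0.38 in A75QN and -0.29 in Atro (adjusted p = 0.00952, 0.00108 and 0.0289). Wnt and Hedgehog pathway genes, 12 of 24 measured, had 4 called lower in A66QC, 1 in A75QN and 2 in Atro. These were 33.3%, 8.33% and 16.7% of the list, beside the same 26.7%, 19% and 4.22%. The Wnt antagonist gene nkd differed by -0.49 in A66QC, -0.38 in A75QN and -0.24 in Atro (adjusted p = 5.54e-06, 0.000249 and 0.0416), and the ligand gene Wnt6 by -0.55 in A66QC, -0.02 in A75QN and -0.41 in Atro (adjusted p = 9.14e-06, 0.859 and 0.00137).

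Measured against Control's own change from day 0 to day 14, none of the genes of the Fat branch, Hippo, cadherin or heparan sulfate lists was called in A66QC or A75QN, where 2.29% and 3.09% of all probe sets were. For Hs6st, the heparan sulfate gene with the smallest adjusted p at day 14, the difference between the changes was 0.04 in A66QC and 0.02 in A75QN. On the other lists there were calls for this difference. Besides CG5196 and tim, given above, they included the clock gene cwo in A66QC at -0.56 (adjusted p = 0.0201) and Wnt6 in Atro at -0.54 (adjusted p = 0.00616).

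**Figure D4:**
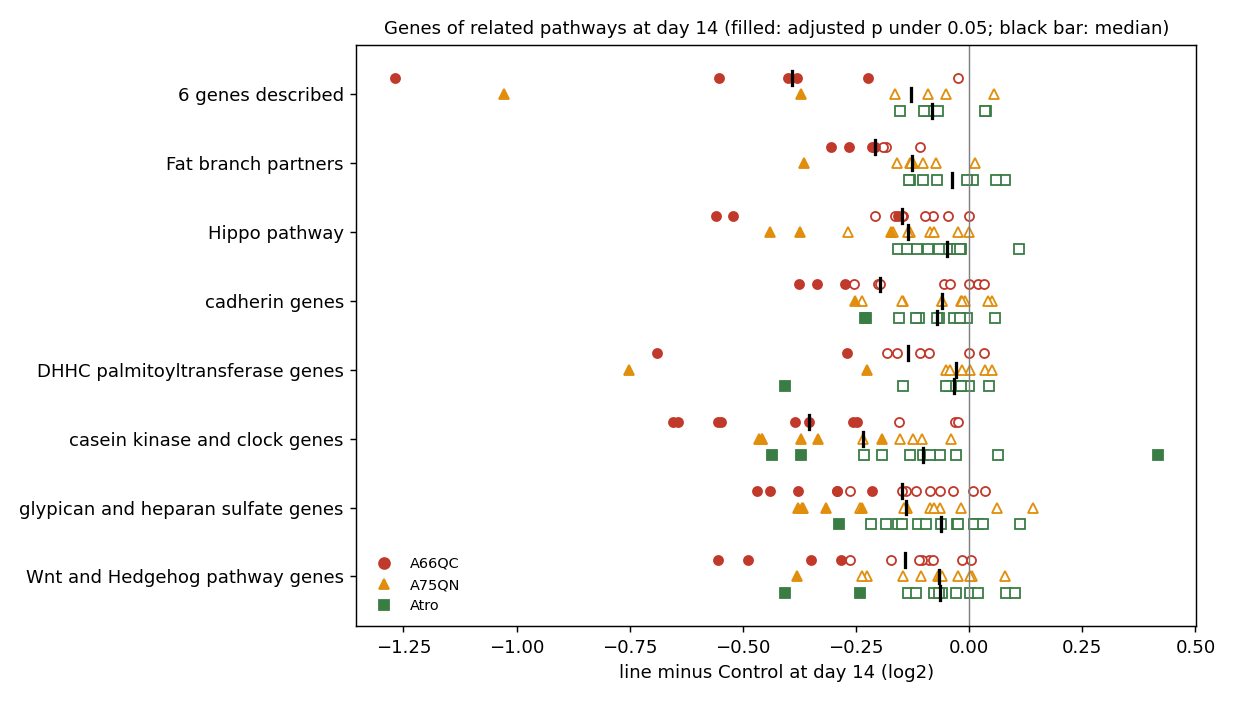
Difference of each line from Control at day 14 (log2) for the 6 genes described and for the measured genes of 7 related lists. Each point is a gene, filled where its adjusted p is under 0.05, and a black bar marks the median of a list in a line; dlp at -1.27 in A66QC and -1.03 in A75QN lies to the left of every listed gene.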

How the data were processed

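Total RNA from pooled fly heads was labelled with biotin and hybridised to one-colour Affymetrix arrays, 36 in all. The values used were the log2 values per probe set and array that the authors deposited. Per the submitters' processing notes these were made in R 2.11.0. Their background correction and normalization were not given in the sources used here. Of 18952 rows, 183 control probe sets were left out and 18769 tested; 13647 carried 1 gene symbol, 402 several and 4720 none. Gene names are those of the platform annotation, with list genes also matched by their synonyms.

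One linear model with 12 group means was fitted with limma 3.58.1 in R 4.3.3 (residual degrees of freedom 24, prior 6.49). Of 41 contrasts, 36 were set with the groups and 5 were added after seeing the data. Adjusted p-values are Benjamini-Hochberg values over all tested probe sets of a contrast, with a threshold of 0.05, and intervals are moderated 95% intervals. The replicate numbers were ignored in this fit. Figures were drawn with matplotlib 3.10.9 under Python 3.11.15, and the fit was tested on simulated data.

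The members and lists were chosen with earlier results of these data known. Named besides the members were Gug, the 2 genes most like each member, and up to 4 genes of a list with the smallest adjusted p against Control at day 14 in any line; wap was named to complete a count. The gene wap also stood on its list under an older name and was counted once. Listed genes without a representative were not used here. Alternatives were quantile and cyclic loess normalization, bright probe sets only, a trended and robust prior, array weights, the replicate number as a block, the mean of a gene's probe sets, leaving out the 6 arrays of outlying spread, a fit of the compared groups alone, and leaving out each array. The lists were recounted under the normalizations after seeing the data. Arrays have no read depth, and their number and the signal over background limit the precision.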

Additional observations from a re-analysis of the deposited data

Results flagged for a closer look

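The changes over time that differed between a line and Control by the test of that difference were these, on the log2 scale. The change of dlp from day 0 to day 2 differed from Control's by 0.71 in A75QN. From day 0 to day 14 it differed by -1.04 in A66QC and -0.53 in A75QN, and that of lft by -0.58 in A66QC. From day 2 to day 14 the change of dlp differed by -1.40 in A66QC, -1.24 in A75QN and -0.49 in Atro, that of lft by -0.59 in A66QC and that of app by -0.56 in A75QN. Against the change in Atro from day 0 to day 14, A66QC differed by -0.83 for dlp and -0.49 for lft. All but the app value kept their calls in every alternative tried. The differences of A75QN involving days 2 and 14 stand beside a spike-in level 2.77 higher on those 6 arrays than the mean of the other 30, a signal outside the genes analysed, and its part in them was not tested.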

How the results depend on the processing

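Of 246 differences tested for the 6 genes, 70 were called, of which 40 kept call and direction under all alternatives and 30 lost the call under at least 1; 55 of the 176 others were called under at least 1, and 0 reversed while called. Counts of called genes moved as follows. For the lines against Control they were 3 at day 0 (6 with array weights; 1 to 3 without 1 array), 1 at day 2 (5 with quantile normalization, 4 with cyclic loess, 5 with array weights, 2 without the arrays of outlying spread, 3 in the fit of the compared groups alone; 0 to 1 without 1 array) and 7 at day 14 (4 with quantile normalization; 4 to 7 without 1 array). For the polyglutamine lines against Atro they were 4 at day 0 (10 with array weights, 2 in the fit of the compared groups; 1 to 5 without 1 array), 0 at day 2 (3 without the arrays of outlying spread) and 4 at day 14 (7 with array weights, 7 without the arrays of outlying spread, 8 in the fit of the compared groups). For A66QC against A75QN there were 5 (3 to 6 without 1 array). For day 2 against day 0 there were 8 (5 with bright probe sets only, which left out fj, and 13 with array weights), and for the difference of the day 2 change from Control 1 (3 with quantile normalization, 3 with cyclic loess, 4 with array weights; 1 to 2 without 1 array). The other counts stayed within 1.5 times under each alternative, and the cause of these movements was not tested. With the replicate block no count moved by over 1.5 times: the lines against Control at day 14 gave 7 and A66QC against A75QN 6. The replicate numbers were not taken as pairs. Every same-number correlation was over 0.1 in 2 of 30 comparisons, and the correlations ran from -0.60 to 0.68. In Atro against Control at day 2 they were 0.39, 0.68 and 0.27, and shared handling of these arrays was not tested. The near-background level of fj and ds limits the differences they can show.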
